A study of Oryza sativa with 4 samples.

Results

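A set of 42 rice loci had many more reads in both emf2b panicle libraries than in either wild-type (WT) library, while already being well expressed in WT. They were chosen by their read counts from the 45027 loci in the deposited table. Each count was divided by its library total and multiplied by 1000000, which gives the CPM values used throughout. A locus was taken when both WT libraries had at least 5 CPM and the lower of the 2 emf2b values was at least 3 times the higher of the 2 WT values. The WT minimum was met by 12933 loci, called well expressed here, and the 42 members made up 0.325% of them. The mirror rule, with the higher emf2b value at most the same fraction below the lower WT value, took 21 loci, or 0.162%. Since the comparison of emf2b with WT chose the members, their levels in these 4 libraries are a description and carry no test.

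The plants were rice of the cultivar Dongjin, and the tissue was the young panicle at inflorescence stage 7, when it is 0.3 to 1.5 cm long. There were 2 groups of 2 libraries. One was WT and the other carried the genotype label emf2b-1, and nothing in the labels says how the allele disrupts the gene or whether the libraries of a group came from separate plants. The protocol text given for all 4 samples speaks of wild-type tissue, also for the mutant, so the groups rest on the genotype label. Each library was made from cDNA amplified from 10 ng of total RNA. The libraries are told apart by their 4-base barcodes, GAGT and TTAG for emf2b, ACCC and CGTA for WT.

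EMF2B belongs to Polycomb repressive complex 2 (PRC2), which places the histone mark H3K27me3 on chromatin and keeps many developmental genes of plants silent or low in cells where they are not used. Genes under this mark are typically switched on only in particular organs, stages or conditions. Several of the named members belong to families known from responses to drought, salt, cold and the hormone abscisic acid (ABA). ABA acts through phosphatases, protein kinases and transcription factors that raise protective proteins such as dehydrins.

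The emf2b libraries held 12932305 (GAGT) and 16926873 (TTAG) counts and the WT libraries 25382519 (ACCC) and 32087683 (CGTA). EMF2B (LOC_Os09g13630.1, chromosome 9), the gene named by the genotype, was lower in both mutant libraries, with 9.90 and 11.9 CPM in emf2b against 37.1 and 38.8 CPM in the WT pair (log2 fold change -1.83 ± 0.21 SE, Benjamini-Hochberg adjusted p = 0.00661 from edgeR's quasi-likelihood test). Without WT CGTA the same test gave an adjusted p of 0.0843. Summed over 5 marker genes of the floral meristem and panicle, the libraries had 353 (GAGT), 358 (TTAG), 396 (ACCC) and 487 (CGTA) CPM. This sum joined markers that moved in different directions. In the same order, MADS6 had 18.1, 22.6, 129.6 and 211 CPM (edgeR log2 fold change -3.10 ± 0.27 SE, adjusted p = 0.00489). MADS1 had 8.43, 6.68, 22.8 and 31.4 CPM (-1.88 ± 0.27 SE, edgeR adjusted p = 0.00909). MADS14, MADS15 and OSH1 had log2 fold changes of 0.54, 0.27 and 0.03 and were not called. The 2 leaf markers summed to 20.2, 59.3, 26.2 and 15.1 CPM in the same order, the 6 anther and tapetum markers to 61.1, 91.3, 107.5 and 111.6 CPM, and the 2 seed markers to 6.26, 8.51, 4.89 and 3.96 CPM. MSP1 made up most of the anther sum, with 56.6, 80.7, 104.7 and 109.0 CPM (log2 fold change -0.68). EAT1 and TIP2 leaned the other way and UDT1 did not (2.29, 1.63 and -1.50), and edgeR called none of these. TDR and CYP703A3 had few reads. GLUA1 made up most of the seed sum, while VP1 had 0.696, 3.07, 0.158 and 0.0935 CPM (3.91 ± 0.91 SE, edgeR adjusted p = 0.0266). None of these markers had 0 reads in every library, and their part in the members' levels was not tested. In whole panicles, more cells that use a gene and more RNA of it per cell cannot be told apart. Over the well-expressed loci the median fold difference, the higher over the lower value, was 1.18 within the emf2b pair and 1.16 within the WT pair, with Spearman correlations across loci of 0.959 and 0.969. No pair looked like 1 library deposited more than once, since each differed by far more than the noise of counting reads. The spread between libraries may be technical.

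The members took 2.02% of all reads in emf2b GAGT and 1.57% in emf2b TTAG, against 0.223% and 0.200% in WT ACCC and WT CGTA. For each locus the lower emf2b value was divided by the higher WT value, and this lower-over-higher ratio ran from 3.04 to 13.8 with a median of 4.50. It lay between 3 and 4 in 20 members, was at least 5 in 16, at least 8 in 7 and at least 10 in 3. The ratio of the group means was larger, from 3.47 to 42.4 with a median of 6.83. Every member was read deeply enough that counting error was small, with at least 329 reads in each emf2b library and 133 in each WT library. The exact 95% interval of the lower-over-higher ratio, which covers counting error only, lay wholly above 3 in 35 members and reached below 3 in 7. The same counts chose the members, and libraries of a group differed by far more than counting error. The intervals therefore do not test whether a locus exceeds the threshold.

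**Figure D1:**
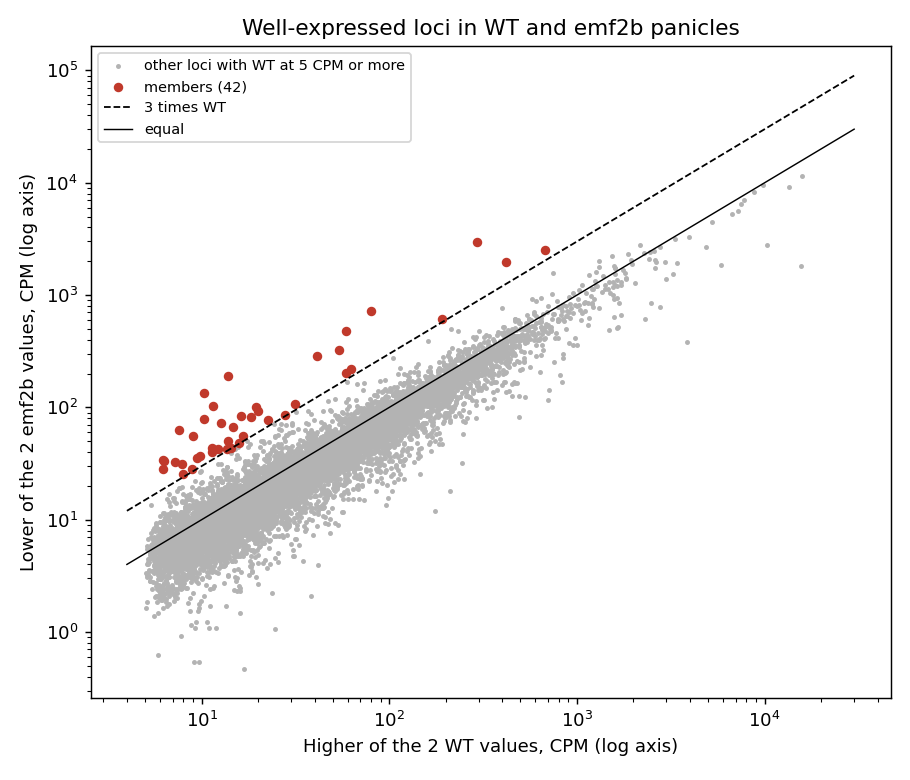
Each point is a locus with at least 5 CPM in both WT libraries. The horizontal axis is the higher WT value and the vertical axis the lower emf2b value, both in CPM on log axes, with a solid line where the values are equal and a dashed line at 3 times WT. The 42 members (red) lie above the dashed line, most of them at the low end of the WT levels.

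The table gives loci only by identifiers of the MSU type, with a number for the gene model after the point, and does not pair them with names. Names were given to 7 members, from general knowledge of rice loci and after their values had been seen. Each name was then found as a synonym in a RefSeq table of another assembly (ASM3414082v1), on the same chromosome and in the same order. The other 35 members are called by their identifiers, with no role, and those described were chosen after their values were seen. Among them, LOC_Os11g03300.1 stood in the stress NAC list as NAC10. That name was not found in the RefSeq table, so the locus was not counted as a list gene.

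The dehydrin gene RAB16A (LOC_Os11g26790.1, chromosome 11) encodes a hydrophilic protein of drying seeds and water-stressed tissue and is a classical ABA-induced gene of rice. It stood at 798 CPM in GAGT but 78.2 CPM in TTAG, against 10.4 CPM in ACCC and 10.3 CPM in CGTA. The WT libraries were nearly equal, and GAGT was 10.2 times TTAG. The lower-over-higher ratio was 7.54 (95% interval 6.60 to 8.64), and the ratio of means, which GAGT dominates, was 42.4. Reads of the RAB16 genes, similar copies in a cluster on chromosome 11, could have been shared by the counting.

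HOX22 (LOC_Os04g45810.1, chromosome 4) encodes a homeodomain-leucine zipper transcription factor of class I (HD-Zip I), a class with several members that respond to drought and ABA. It stood at 474 CPM in GAGT, 85.0 CPM in TTAG, 13.2 CPM in ACCC and 27.9 CPM in CGTA. Both pairs were unequal, with GAGT 5.58 times TTAG and CGTA 2.11 times ACCC. Its ratio of 3.04 was the lowest among the members, and it fell to 2.95 with library sizes scaled by TMM.

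CIPK10 (LOC_Os03g22050.1, chromosome 3) encodes a protein kinase that is activated by calcium-sensing CBL proteins. It had 585 and 479 CPM in GAGT and TTAG and 52.99 and 59.0 CPM in ACCC and CGTA. Mean levels were 531.7 ± 74.9 CPM in emf2b against 56.0 ± 4.22 CPM in the WT libraries (SD, n = 2 each). Of the 7 named members it had the largest ratio, 8.12 (95% interval 7.72 to 8.54), and its libraries were close within each group.

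SAP11 (LOC_Os08g39450.1, chromosome 8) encodes a zinc finger protein with A20 and AN1 domains, of the stress-associated protein family. It had 344 and 202 CPM in GAGT and TTAG and 58.5 and 37.7 CPM in ACCC and CGTA, a ratio of 3.45. Both pairs differed by more than 1.5 times. ERG3 (LOC_Os04g44870.1, chromosome 4), known as an elicitor-responsive gene for a small protein with a C2 domain, had 546 CPM in GAGT but 55.3 CPM in TTAG, against 13.0 and 16.6 CPM in ACCC and CGTA. GAGT was 9.88 times TTAG, close to the imbalance of RAB16A, and the ratio over the higher WT value was 3.34 (95% interval 2.995 to 3.72).

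The gene listed as PAL (LOC_Os02g41630.2, chromosome 2) encodes phenylalanine ammonia-lyase, the enzyme that opens the phenylpropanoid pathway to lignin and phenolic compounds. It had 50.3 and 60.9 CPM in GAGT and TTAG and 13.8 and 7.42 CPM in ACCC and CGTA, a ratio of 3.65. Here TTAG was the higher emf2b library, and the fold difference was larger in the WT pair (1.86) than in the emf2b pair (1.21). D14 (LOC_Os03g10620.2, chromosome 3) encodes the strigolactone receptor, an alpha/beta hydrolase whose loss in rice gives dwarf plants with many tillers. It had 43.9 and 44.5 CPM in GAGT and TTAG and 10.6 and 14.4 CPM in ACCC and CGTA. The emf2b libraries were almost identical, at 44.2 ± 0.44 CPM, and WT stood at 12.5 ± 2.71 CPM (SD, n = 2 each). Its ratio of 3.04 was next to the lowest, and was 2.99 with TMM scaling.

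**Figure D2:**
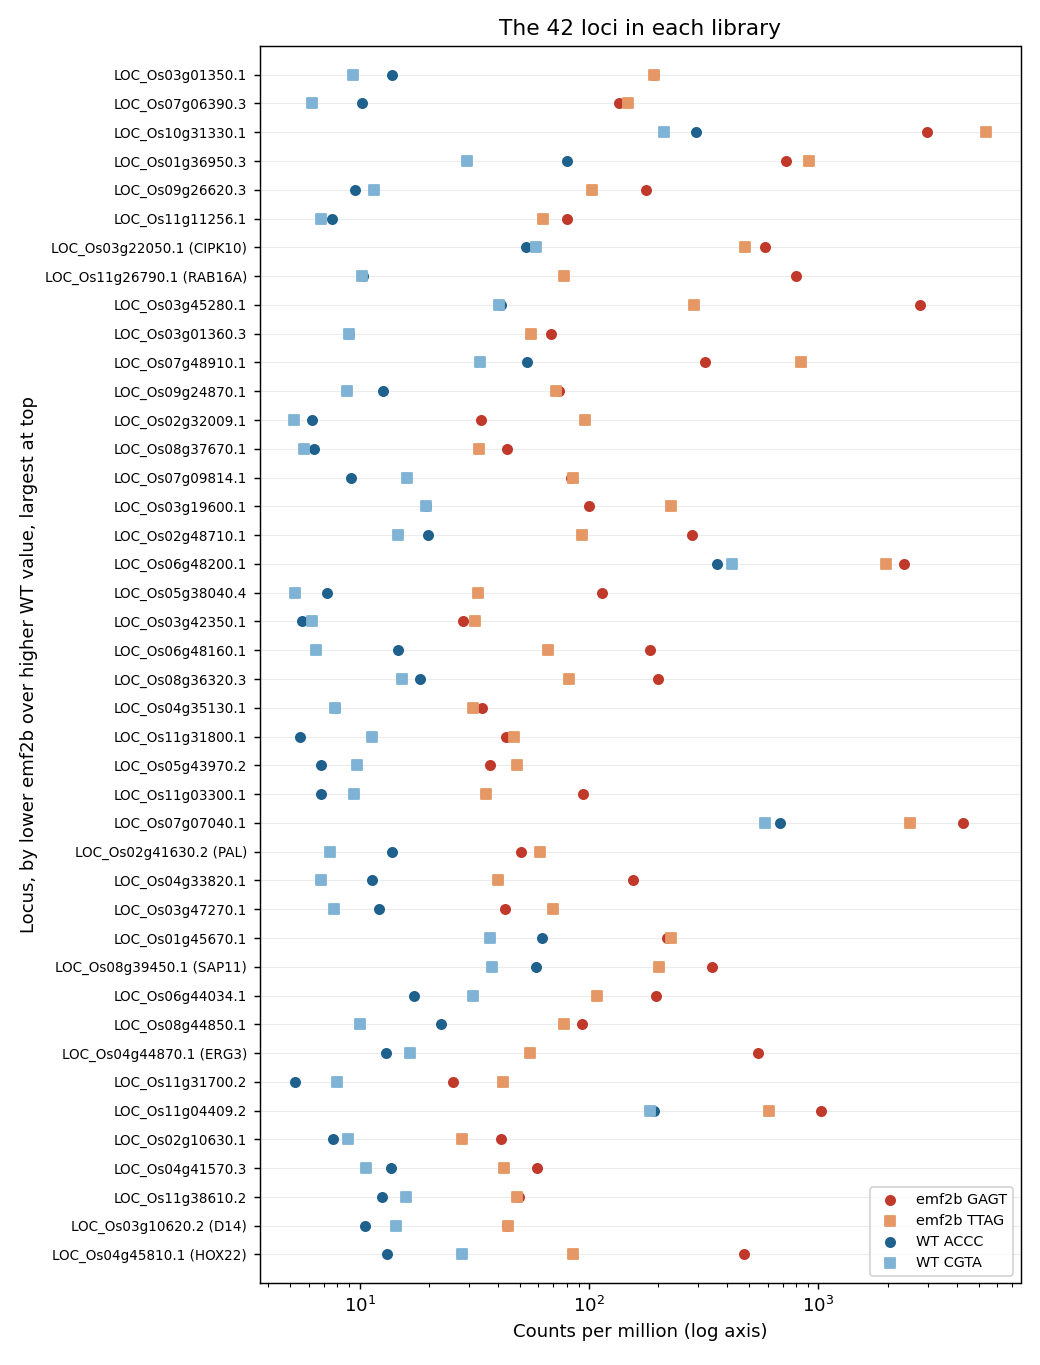
CPM (log axis) of each of the 42 members in the emf2b libraries GAGT (red circles) and TTAG (orange squares) and the WT libraries ACCC (dark blue circles) and CGTA (light blue squares), ordered by the lower emf2b value over the higher WT value. The emf2b points lie to the right of the WT points for every locus, as the rule requires, and the emf2b points of RAB16A, ERG3, HOX22 and LOC_Os03g45280.1 are the farthest apart.

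Among the unnamed members, the largest ratio was that of LOC_Os03g01350.1 on chromosome 3. It had 191.3 and 191.7 CPM in GAGT and TTAG and 13.8 and 9.41 CPM in ACCC and CGTA, a ratio of 13.8 (95% interval 12.4 to 15.5). Its emf2b libraries were almost equal. LOC_Os07g06390.3 followed with 134.5 and 148.5 CPM in emf2b and 10.3 and 6.20 CPM in WT, a ratio of 13.1 (95% interval 11.5 to 15.0). LOC_Os10g31330.1 combined a large ratio, 10.2, with many reads, at 2971 and 5367 CPM in GAGT and TTAG and 292 and 211 CPM in ACCC and CGTA. Those 3 loci were the members with a ratio of at least 10, and in each of them TTAG was at or above GAGT.

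The next ratios belonged to LOC_Os01g36950.3, at 9.02, LOC_Os09g26620.3, at 8.95, and LOC_Os11g11256.1, at 8.25. LOC_Os01g36950.3 had 723 and 912 CPM in GAGT and TTAG and 80.1 and 29.5 CPM in ACCC and CGTA, so its WT libraries differed by a larger fold than its emf2b libraries. LOC_Os09g26620.3 had 178 and 103.5 CPM in emf2b and 9.57 and 11.6 CPM in WT. LOC_Os11g11256.1 had 80.1 and 62.7 CPM in emf2b and 7.60 and 6.79 CPM in WT. In both of these the WT pair was close and GAGT was the higher emf2b library.

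By reads, and not per transcript length, the members seen most in WT were LOC_Os07g07040.1, LOC_Os06g48200.1, LOC_Os10g31330.1 and LOC_Os11g04409.2. LOC_Os07g07040.1 had 4251 and 2516 CPM in GAGT and TTAG and 679 and 584 CPM in ACCC and CGTA, a ratio of 3.71. LOC_Os06g48200.1 had 2371 and 1960 CPM in emf2b and 361 and 420 CPM in WT, a ratio of 4.67. LOC_Os11g04409.2 had 1025 and 606 CPM in emf2b and 192 and 184 CPM in WT, a ratio of 3.16. The WT pairs of these loci were close to equal, and the most-read members were thus not those with the largest ratios, LOC_Os10g31330.1 excepted. At the other end, LOC_Os02g32009.1 had the lowest WT mean, with 33.9 and 96.0 CPM in GAGT and TTAG and 6.22 and 5.20 CPM in ACCC and CGTA.

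The 3 members nearest the threshold were HOX22, D14 and LOC_Os11g38610.2, whose ratio was 3.07. Just outside it were LOC_Os07g39680.1 at 2.95, LOC_Os08g06380.1 at 2.88 and LOC_Os01g70110.1 at 2.88. The values run on without a gap across the threshold. With 2 times WT in place of 3, the rule took 107 loci, and with 4 times it took 22. A WT minimum of 1 CPM gave 139 loci and one of 10 CPM gave 21.

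The emf2b libraries were less alike at the members than over the well-expressed loci as a whole. Their median fold difference was 1.55 over the 42 members, beside the 1.18 over the 12933 well-expressed loci. Emf2b GAGT exceeded TTAG by more than 2 times in 10 members (23.8%), against 1.93% of well-expressed loci. Emf2b TTAG exceeded GAGT by more than 2 times in 3 members (7.14%), against 2.65%. The 2 libraries were within 1.5 times of each other in 21 members (50% of them, against 83.5% of well-expressed loci). These shares are a description, since the rule used both libraries, and the cause of the difference between them was not tested.

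The most unequal members were RAB16A, ERG3, LOC_Os03g45280.1 and HOX22, each with GAGT more than 5 times TTAG. LOC_Os03g45280.1 had 2775 CPM in GAGT, 288 CPM in TTAG and 41.4 and 40.7 CPM in ACCC and CGTA, so GAGT was 9.63 times TTAG and TTAG 6.97 times the higher WT value. In the other direction, LOC_Os02g32009.1 was 2.83 times as high in TTAG as in GAGT, LOC_Os07g48910.1 2.62 times and LOC_Os03g19600.1 2.28 times. LOC_Os07g48910.1 had 322 and 843 CPM in GAGT and TTAG and 53.9 and 33.5 CPM in ACCC and CGTA. LOC_Os03g19600.1 had 99.8 and 228 CPM in emf2b and 19.5 CPM in each WT library. The members closest to equal in emf2b included D14 and LOC_Os03g01350.1, which sit at the lowest and highest ends of the ratio.

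**Figure D3:**
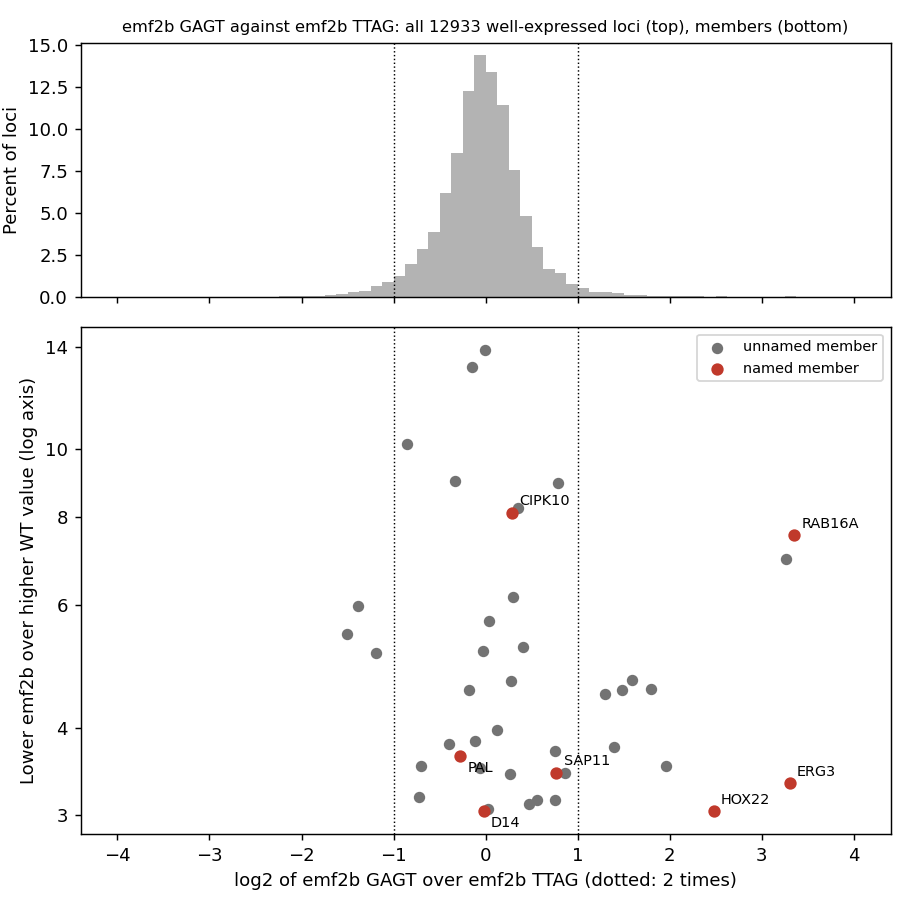
The horizontal axis of both panels is log2 of the emf2b GAGT value over the emf2b TTAG value, with dotted lines at 2 times either way. The upper panel gives the percent of the 12933 well-expressed loci in each bin, and the lower panel places each of the 42 members by that value and by its lower emf2b over higher WT value (log axis). The members spread more widely than the well-expressed loci, with 10 to the right of the dotted lines and 3 to the left.

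The rule without either emf2b library took more loci, 77 without GAGT and 150 without TTAG. Without a WT library it took 91 (without ACCC) and 54 (without CGTA), and the 42 members were among the loci taken in all 4 cases, which a rule on the lowest and highest values fixes. The WT libraries were also less alike at the members, with a median fold difference of 1.37 against 1.16 over well-expressed loci, and 5 members (11.9%, against 1.87%) differed by more than 2 times between them. WT ACCC was the higher in 25 members and WT CGTA in 17.

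A test was possible for loci that the rule did not take. Of 22615 loci tested across the whole table by the edgeR quasi-likelihood test, 3057 (13.5%) were higher in emf2b and 499 (2.21%) lower at an adjusted p under 0.05. Among the 12933 well-expressed loci, 290 (2.24%) were higher, so 248 of these were no members. In these 248, GAGT exceeded TTAG by more than 2 times in 36 (14.5%) and TTAG exceeded GAGT in 11 (4.44%). The 2 libraries were within 1.5 times of each other in 62.9% of the 248, against 50% of the members. These shares depend on the filter, because a fit only on loci whose WT mean was at least 5 CPM called 17 loci higher, 16 of them members. Over all 3057 loci called higher the balance was the other way, with 7.56% more than 2 times higher in GAGT and 27.6% in TTAG. Most of these calls needed both WT libraries, as 161 loci were higher without WT ACCC and 16 without WT CGTA, in fits with 1 residual degree of freedom. Without TTAG 1907 loci were higher.

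Members lay on 11 of the 12 chromosomes. Chromosome 3 held 8 (19.0% of the members, against 14.2% of the well-expressed loci), chromosome 11 held 7 (16.7% against 4.66%) and chromosome 4 held 5 (11.9% against 8.20%). Chromosome 1 held 2 (4.76% against 14.3%) and chromosome 12 none. With 42 loci these are small numbers, and the shares were not tested. In the order of identifiers, LOC_Os03g01350.1 and LOC_Os03g01360.3 were next to each other, and LOC_Os06g48160.1 and LOC_Os06g48200.1 were within 5 measured loci. LOC_Os03g01360.3 had 68.4 and 55.7 CPM in GAGT and TTAG and 9.02 and 9.04 CPM in ACCC and CGTA. LOC_Os06g48160.1 had 185 and 66.3 CPM in emf2b and 14.7 and 6.48 CPM in WT, with GAGT well above TTAG, whereas GAGT was 1.21 times TTAG in LOC_Os06g48200.1.

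Of the loci next to a member that were no members, 49 could be tested, and 10 of them (20.4%) were higher in emf2b and 0 lower by edgeR, beside 13.5% and 2.21% of all loci tested. Their median log2 fold change was 0.22. At an unadjusted p under 0.05, edgeR had 12 higher and 3 lower, and DESeq2 called 8 higher and 0 lower. Within 5 loci of a member, 38 of 222 (17.1%) were higher and 3 (1.35%) lower. None of these shares is matched for WT level, on which the share called higher depended. Among the well-expressed loci 2.24% were higher, and only 22 of the 49 neighbours had a WT mean of 5 CPM or more. Of the 10 calls, 1 held without WT ACCC and 0 without WT CGTA. Strand use in the counting is not stated, and reads of overlapping neighbours therefore cannot be told apart.

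The neighbours described here were chosen after their values were seen. LOC_Os11g11240.1, beside LOC_Os11g11256.1, had 6.03 and 11.0 CPM in GAGT and TTAG and 0.355 and 0.374 CPM in ACCC and CGTA (log2 fold change 4.50 ± 0.50 SE, edgeR adjusted p = 0.00655). LOC_Os11g31705.1, beside LOC_Os11g31700.2, had 15.7 and 17.5 CPM in emf2b and 3.51 and 3.83 CPM in WT (2.14 ± 0.26 SE, edgeR adjusted p = 0.00737). LOC_Os03g47290.1, beside LOC_Os03g47270.1, was called at few reads, with 1.78 and 1.95 CPM in emf2b, 0.0788 CPM in ACCC and 0 in CGTA (edgeR adjusted p = 0.00989). LOC_Os10g31320.1, beside LOC_Os10g31330.1, had 139.8 and 42.4 CPM in emf2b and 10.6 and 15.0 CPM in WT (2.81 ± 0.53 SE, edgeR adjusted p = 0.0157). In that pair the emf2b libraries leaned opposite ways, GAGT being the higher at LOC_Os10g31320.1 and TTAG at LOC_Os10g31330.1. On chromosome 4 both neighbours of LOC_Os04g33820.1, LOC_Os04g33810.1 and LOC_Os04g33830.1, were higher in emf2b (log2 fold changes 1.20 ± 0.25 and 2.09 ± 0.51 SE, edgeR adjusted p = 0.0209 and 0.0317).

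RAB16B (LOC_Os11g26780.1), the dehydrin gene next to RAB16A, rose to 170.3 CPM in GAGT but 14.8 CPM in TTAG, from 1.02 and 2.43 CPM in ACCC and CGTA (log2 fold change 5.69 ± 1.12 SE, edgeR adjusted p = 0.0176). RAB16C (LOC_Os11g26760.1), of the same cluster, had 32.5 and 2.19 CPM in emf2b and 0.473 and 0.530 CPM in WT (5.05 ± 1.21 SE, edgeR adjusted p = 0.0308). Without GAGT the log2 fold change was 2.98 for RAB16B and 2.01 for RAB16C, and the RAB16C call ended (edgeR adjusted p = 0.0558). Both shared with RAB16A the lean to GAGT, and both were below the WT minimum of the rule. RAB16D had 0.851 and 2.13 CPM in emf2b and 0.552 and 0.187 CPM in WT and did not pass the test. EMP1 (LOC_Os05g28210.1), an early LEA gene of embryos, rose without that lean, with 65.1 and 50.2 CPM in GAGT and TTAG and 2.05 and 0.530 CPM in ACCC and CGTA (5.49 ± 0.52 SE, edgeR adjusted p = 0.00531). Of the 6 dehydrin and LEA genes tested besides RAB16A, 4 were higher and 0 lower, with a median log2 fold change of 4.69 beside 0.01 over all loci tested. At an unadjusted p under 0.05, edgeR had all 6 higher and 0 lower, and DESeq2 called 5 higher and 0 lower.

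Relatives of HOX22 were tested in the same way. Of 6 other HD-Zip I genes tested, 3 were higher and 0 lower by edgeR (median log2 fold change 1.24), while 2 were lower at an unadjusted p under 0.05 and DESeq2 called 1 lower. HOX24 (LOC_Os02g43330.1), the closest relative of HOX22, had 16.2 and 1.18 CPM in GAGT and TTAG and 0.118 and 0.249 CPM in ACCC and CGTA (5.42 ± 1.32 SE, edgeR adjusted p = 0.0324). HOX6 (LOC_Os09g35910.1) had 8.97 and 7.92 CPM in emf2b and 2.09 and 1.40 CPM in WT (2.25 ± 0.36 SE, edgeR adjusted p = 0.0118), and HOX16 had 152.3 and 112.1 CPM against 57.7 and 58.8 CPM (1.15 ± 0.21 SE, edgeR adjusted p = 0.0146). The HOX24 call ended without GAGT (2.51, edgeR adjusted p = 0.0854). HOX24 leaned to GAGT as HOX22 did, while HOX6 and HOX16 were near equal between the emf2b libraries. The 3 that did not pass were HOX12, HOX4 and HOX20, with log2 fold changes of 1.33 ± 0.76, -0.72 ± 0.26 and -1.09 ± 0.35 (SE).

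Of 19 other CIPK genes tested, edgeR called CIPK9 higher and no other, with 131.6 and 26.998 CPM in GAGT and TTAG and 14.4 and 13.4 CPM in ACCC and CGTA (2.49 ± 0.64 SE, edgeR adjusted p = 0.0387). The CIPK9 call ended without GAGT (0.86, edgeR adjusted p = 0.0637), and DESeq2 did not make it (adjusted p = 0.102) but called 1 other CIPK gene lower, CIPK1 (DESeq2 log2 fold change -0.71, adjusted p = 0.0404). The median of the 19 was 0.02, close to that of all loci. Of 6 other SAP genes, SAP1 was called, with 215.2 and 87.6 CPM in emf2b and 38.5 and 21.3 CPM in WT (2.31 ± 0.47 SE, edgeR adjusted p = 0.0185), and the median was 0.32. The phenylalanine ammonia-lyase gene PAL06 (LOC_Os02g41680.1) was higher at a few reads, with 1.55 and 1.71 CPM in GAGT and TTAG, 0.118 CPM in WT ACCC and 0 in WT CGTA (edgeR adjusted p = 0.0141). The strigolactone genes D3 and D17, for the F-box partner of D14 and for an enzyme of strigolactone synthesis, did not pass, with log2 fold changes of 0.41 ± 0.24 for D3 and -0.22 ± 0.40 for D17 (SE).

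**Figure D4:**
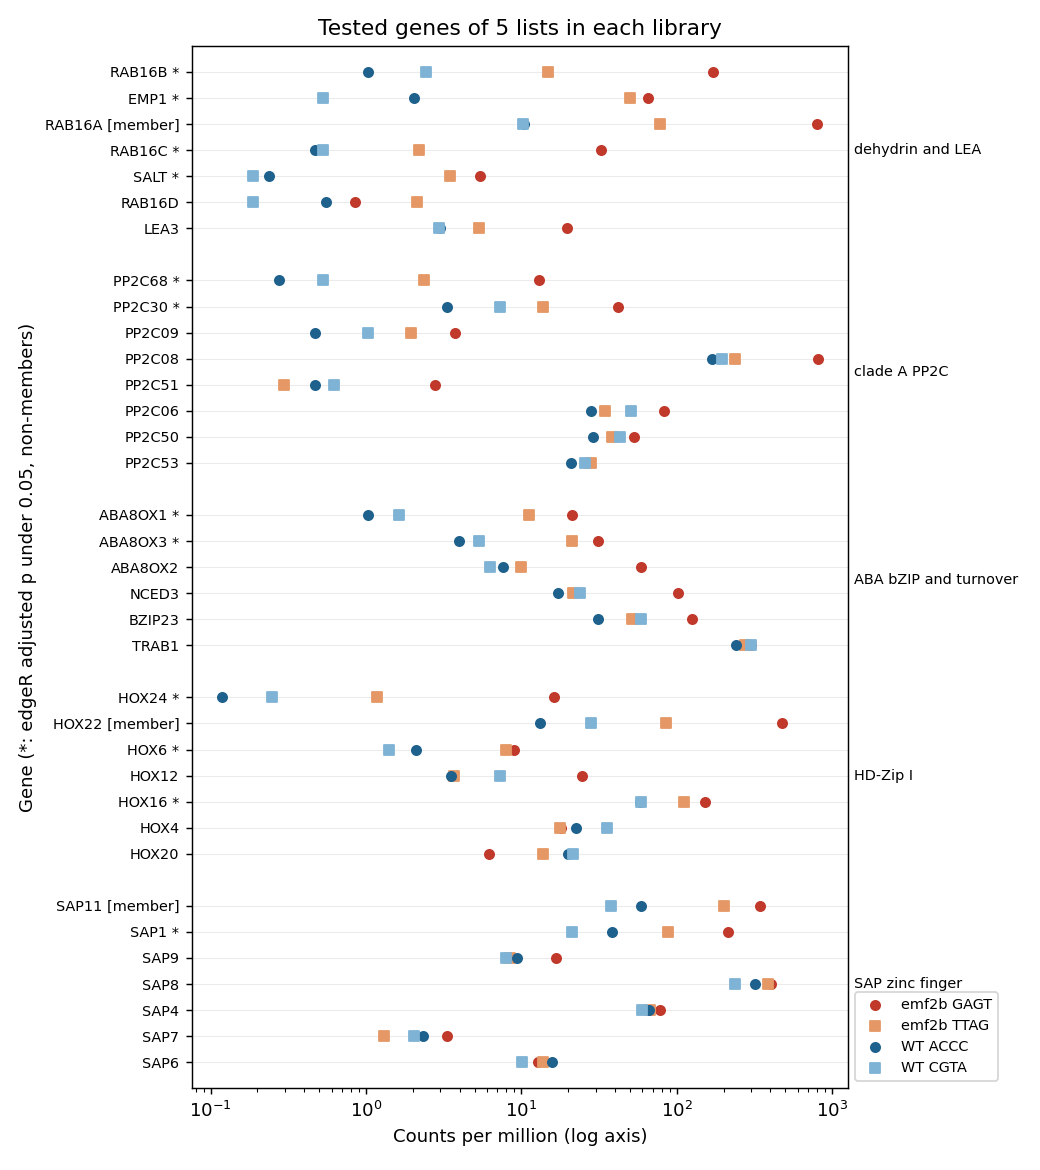
CPM (log axis) in the 4 libraries for the tested genes of 5 lists, with members marked in brackets and non-members at an edgeR adjusted p under 0.05 marked by an asterisk. In RAB16B, RAB16C, PP2C68, PP2C30 and HOX24, as in RAB16A and HOX22, the emf2b GAGT point (red) lies far to the right of the TTAG point (orange).

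Several ABA genes that were no members were also unequal between the emf2b libraries. PP2C68 and PP2C30 encode clade A phosphatases, which hold back ABA signalling and are themselves induced by ABA. PP2C68 had 13.0 and 2.36 CPM in GAGT and TTAG and 0.276 and 0.530 CPM in ACCC and CGTA (4.14 ± 0.90 SE, edgeR adjusted p = 0.0229). PP2C30 had 41.7 and 13.7 CPM in emf2b and 3.31 and 7.32 CPM in WT (2.34 ± 0.57 SE, edgeR adjusted p = 0.0324). The PP2C30 call ended without GAGT (1.26, edgeR adjusted p = 0.120), and PP2C68 had 2.40 without it (edgeR adjusted p = 0.0411). The other 6 clade A genes tested did not pass, and in 5 of the 8 GAGT was more than 2 times TTAG. Of 3 genes tested for enzymes that break ABA down, ABA8OX1 and ABA8OX3 were higher and ABA8OX2 did not pass. ABA8OX1 had 21.2 and 11.2 CPM in emf2b and 1.02 and 1.62 CPM in WT (3.55 ± 0.44 SE, edgeR adjusted p = 0.00747). ABA8OX3 had 30.9 and 21.1 CPM in emf2b and 3.98 and 5.30 CPM in WT (2.45 ± 0.30 SE, edgeR adjusted p = 0.00740). ABA8OX2 was far more unequal, with 58.7 CPM in GAGT, 9.93 CPM in TTAG and 7.64 and 6.26 CPM in ACCC and CGTA (2.27 ± 0.71 SE, edgeR adjusted p = 0.0733). NCED3, for the enzyme that limits ABA synthesis, had 101.2 and 21.5 CPM in emf2b and 17.1 and 23.8 CPM in WT, so its groups overlapped and it did not pass. The transcription factor genes TRAB1 and BZIP23 of the same list did not pass either. TRAB1 had 302 and 274 CPM in emf2b and 239 and 299 CPM in WT (0.07 ± 0.19 SE). BZIP23 had 124.7 and 51.4 CPM in emf2b and 31.0 and 59.2 CPM in WT (0.94 ± 0.45 SE).

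Over the lists with genes tested, of stress, hormone, floral and tissue genes, 101 non-members were tested, and 21 (20.8%) were higher and 5 (4.95%) lower, beside 13.5% and 2.21% of all loci. These lists too were chosen with earlier results of these data known. The shares are also not matched for WT level, as 2.24% of the well-expressed loci were higher. In 10 of the 21, GAGT was more than 2 times TTAG, and in 3 the reverse held. In 5 lists chosen after the members were seen, those of the families above, 34 were tested, 6 (17.6%) were higher and 0 lower by edgeR, with 5 lower at an unadjusted p under 0.05 and 2 lower by DESeq2. Together 27 were higher, and this fell to 2 without WT ACCC and 1 without WT CGTA. The stress NAC gene SNAC2, the defence gene WRKY71, the trehalose phosphate phosphatase gene TPP1 and the sugar-repressed amylase gene RAMY3D were among those higher with a lean to GAGT. SNAC2 had 375 CPM in GAGT, 49.1 CPM in TTAG and 17.8 and 22.8 CPM in ACCC and CGTA (edgeR log2 fold change 3.37 ± 0.81 SE, adjusted p = 0.0316), but 1.17 without GAGT, and DESeq2 did not call it (adjusted p = 0.0594). Without GAGT the log2 fold changes of WRKY71, TPP1 and RAMY3D were 3.99, 2.85 and 2.49, against 6.41, 5.30 and 6.03 with it, and edgeR still called them. WRKY71 had 31.3 and 3.37 CPM in GAGT and TTAG and 0.355 and 0.0623 CPM in ACCC and CGTA (6.41 ± 1.27 SE, edgeR adjusted p = 0.0177). PBZ1, a pathogenesis-related gene, leaned to TTAG, with 34.95 and 85.5 CPM in emf2b and 4.77 and 3.37 CPM in WT (3.85 ± 0.44 SE, edgeR adjusted p = 0.00684). No gene passed the edgeR test in the lists of DREB and zinc finger, gibberellin, KNOX, photosynthesis, anther and cell cycle genes, which together gave 19 tested genes. In the first of these lists edgeR tested only DREB2A, DREB2B and MYB4, and no zinc finger gene. The photosynthesis and cell cycle lists gave 2 tested genes each. Of the 19, edgeR had 3 higher and 1 lower at an unadjusted p under 0.05. DESeq2 called 3 higher and 1 lower in these lists, where the higher ones included DREB1C and MYB2, which edgeR did not test. In the MADS list 3 genes were higher and 4 lower of 22 tested, and no MADS gene was a member. Besides MADS6 and MADS1, the lower ones included MADS8, with 1.39 and 1.06 CPM in emf2b and 12.5 and 24.7 CPM in WT (-3.97 ± 0.45 SE, edgeR adjusted p = 0.00679). Of 8 heat shock genes tested, 1 was higher and 1 lower, with a median log2 fold change of -0.15. The lower one, HSP16.9A, had 2501 and 1821 CPM in emf2b and 15647 and 8986 CPM in WT (-2.55 ± 0.41 SE, edgeR adjusted p = 0.0117).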

How the data were processed

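The deposited table held whole-number read counts per gene model in 4 columns, 2 emf2b and 2 WT, with no normalization. Per the submitters' processing notes, TopHat2 2.0.5 and DESeq 1.10.1 were used. Which program counted the reads, on which build and gene models, and whether by strand, was not given in the sources used here. Columns name the genotype and a barcode but no replicate number, so each was assigned to its group only, as the labels give it.

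From the counts, CPM values were computed with the library total, and the rule was applied to all 45027 loci. Exact 95% intervals of read ratios cover counting error only. For loci outside the rule, edgeR 4.0.16 in R 4.3.3 was run on the deposited counts, with filterByExpr (minimum count 10, minimum total count 15), TMM scaling, the quasi-likelihood F test on group alone with 2 residual degrees of freedom (two-sided), and Benjamini-Hochberg adjustment over the 22615 loci tested, at a threshold of 0.05. The common biological coefficient of variation was 26%. Positive log2 fold changes mean more reads in emf2b. Standard errors are the absolute log2 fold change over the square root of F. Tables were handled with Python 3.11.15, and DESeq2 1.42.0 was an alternative.

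The members, the 19 gene lists and the tests were chosen with earlier results of these data known, and 5 family lists were added after the members had been seen. Of 188 names in the 19 lists, 126 were found in the RefSeq table on the expected chromosome and in the same order, and the others were not used; the name EMF2B was not found there and rests on general knowledge of rice loci. Of the 56 names in the added lists, 49 were found. No name of the PRC2 list was matched, so that list gave no count. Among list genes that were no members, up to 4 called ones per list, by adjusted p, could be named. Genes named without a call are shown because they share a family or pathway with a member, were tissue markers or show which genes a list held. Sequences and promoter motifs were not used here.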

Additional observations from a re-analysis of the deposited data

How the results depend on the processing

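No paired analysis was possible because the columns carry no replicate numbers. The comparison of promoter motifs was not run. The rule took 42 loci as given, and 107 at 2 times WT, 22 at 4 times, 139 with a WT minimum of 1 CPM, 21 with one of 10 CPM, and 129 when group means replaced the lowest and highest values. Leaving out 1 library gave 54 to 150. TMM scaling gave 37, DESeq2 size factors 36, thinning to the shallowest library 40 and a WT minimum of 3 CPM 59. D14 and HOX22 fell below 3 times WT with TMM or DESeq2 scaling, D14 also after thinning, and the median ratio of the members was 4.24 and 4.08 under these scalings. Restricting the edgeR test to a mean of 5 CPM or more in WT left 17 loci higher and 8 lower, against 3057 and 499, and among list genes 0 higher and 2 lower, against 27 and 5. DESeq2 called 9 list genes lower. Leaving out 1 library gave 16 to 3673 loci higher and 4 to 401 lower, and 1 to 40 list genes higher and 1 to 10 lower. The log2 fold change of EMF2B was -1.69 (adjusted p = 0.0510) with a mean of 5 CPM or more in WT, and between -1.94 and -1.77 with 1 library left out. Within 5 measured loci, 4 members had a member as neighbour, against 2 at the next locus. Of the 29 list genes available for naming, 4 kept their call without WT ACCC and 2 without WT CGTA, where 1 residual degree of freedom remains, and 24 without GAGT and 27 without TTAG. The log2 fold changes of EMF2B and of these 29 genes kept their sign under the alternatives that gave a value, whereas the balance of list calls turned from more higher to more lower with a mean of 5 CPM or more in WT, and in the CIPK list under DESeq2, from 1 higher and 0 lower to 0 higher and 1 lower. The shallowest library, GAGT, held 12932305 counts, and with 2 libraries a group the spread is estimated from few samples.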
